A study of Mus musculus with 18 samples.

Results

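The genes described here encode the proteins of the cytosolic ribosome, the particle that translates nuclear mRNAs. They were chosen by symbol: protein-coding genes named Rpl or Rps followed by a number, together with the stalk genes Rplp0, Rplp1 and Rplp2 and the small-subunit gene Rpsa. The rule found 82 genes of 55487 in the table, 50 of the large subunit and 32 of the small subunit. In mammals their mRNAs are a classic example of co-regulated transcripts: most begin with a tract of pyrimidines (C or T), the 5′ terminal oligopyrimidine or TOP motif, through which the kinase complex mTORC1 and the RNA-binding protein Larp1 set their translation and stability. Ribosome building rises as lymphocytes leave rest and begin to grow, and interleukin-15 (IL-15) is a growth signal of this kind for natural killer (NK) cells.

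RNA-seq was made from YFP+ NK cells sorted from mouse spleen. Acly knock-out (KO) mice were Acly fl/fl and carried Rosa YFP/YFP with Ncr1 CRE-ERT2, a tamoxifen-activated Cre under the NK-cell gene Ncr1. Acly encodes ATP-citrate lyase, the enzyme that produces acetyl-CoA outside mitochondria from citrate. Wild-type (WT) mice had the same Cre and the same YFP reporter without the floxed Acly allele, and mice of both genotypes ate a tamoxifen diet for 48 hours and were used 5 days after it ended. Cells of each genotype were taken fresh, after 72 hours of priming in IL-15 (100 ng/ml), or after priming and then 6 hours on plate-bound NKG2D (20 ug/ml, the labels' wording; NKG2D is an activating receptor of NK cells). Each of the 6 groups had 3 libraries, 18 in all, and as no label ties a library to an animal, the spread behind each p-value may be partly technical. Ages were not given.

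The libraries held 14772350 to 34367582 counts. Levels are in CPM, counts scaled to the library's total over the tested genes times its TMM factor (0.897 to 1.14), a scaling that evens out the bulk of genes between libraries; shares of counts use the plain totals. Acly averaged 18.9 CPM in fresh KO cells, against 250.3 in fresh WT cells. It averaged 42.8 CPM in primed KO cells, against 256 in primed WT cells, and 36.3 in KO cells after NKG2D, against 164 in WT cells, with no overlap between genotypes. All 10 listed NK-cell markers were detected in all groups. The summed level of 6 erythroid markers was 16.3 to 18.1 CPM in fresh KO cells and 115 to 201 CPM in fresh WT cells, and at most 0.871 CPM in any cultured library. The 5 B-cell markers summed to 281 to 323 CPM in fresh KO cells and 234 to 239 CPM in fresh WT cells, and 2 of them were at 0 in every cultured group. Their sum was nevertheless higher after NKG2D than in fresh cells, at 443 to 622 CPM in KO and 436 to 532 CPM in WT libraries.

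Libraries of the same group also stood apart from one another, before any ribosomal protein gene is considered by genotype. An index of 20 genes outside the set, chosen after the data were seen as those most loaded on the leading component of within-group variance (37.1% of it), had a mean log2 CPM of 6.92 in WT primed library 3 and of 3.49 and 3.63 in the other WT primed libraries. In KO cells after NKG2D it was 3.49 in library 1 and 6.09 and 6.10 in libraries 2 and 3. It was 3.98 to 5.06 in fresh KO cells and 5.78 to 6.00 in fresh WT cells, so that in fresh cells it also separated the genotypes. Rpl13 and Rps2 rose and fell with it. Rps2 had 208, 1027 and 1244 CPM in KO libraries after NKG2D, and 165, 181 and 1487 CPM in primed WT libraries. Rpl13 had 452, 2706 and 2644 CPM in those KO libraries and 432, 442 and 3306 CPM in those WT libraries. These 2 genes are given apart from the others below. The others were not free of the index: within most groups their summed share of counts tended to be lower where the index was higher. Without Rpl13 and Rps2 the share was 9.45% in WT primed library 3, against 11.05% and 11.4% in the other WT primed libraries. In KO cells after NKG2D it was 11.3% in library 1, against 10.1% and 9.47% in libraries 2 and 3. Fresh KO libraries did not keep this order. Each comparison is also given without the libraries concerned and with the index as a covariate. The part of the index in the genotype differences was not tested beyond that.

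Of the 82 genes, 80 passed the filter on low counts, 48 of the large and 32 of the small subunit, and 79 of them had a mean of at least 3 on the log2 CPM scale. Rpl10l and Rpl3l, retrogene and paralogue forms of Rpl10 and Rpl3, did not pass: Rpl10l had no count in any library and Rpl3l had 0.0774 CPM in 1 WT fresh library and 0 elsewhere. Rpl39l, the paralogue of Rpl39, passed, at no more than 0.658 CPM in any library. Per kilobase of transcript, the mean level over the 6 groups of the 79 abundant genes spanned 124 to 5166 CPM, with a median of 1236, from Rpl5, a protein that binds the 5S rRNA, to Rpl41, the smallest ribosomal protein. Rps27, Rps27rt and Rps27l form a family within the set, and the coding sequences of Rps27 and Rps27rt were identical over 255 bases, so reads from these genes could not be told apart except in their untranslated parts. Rps27l matched Rps27 at 76.1% of bases, and Rpl36al matched Rpl36a at 87.8%. Processed copies of the genes (316 annotated copies of 61 of the genes) took 8.61% to 9.74% of the reads assigned to genes and copies together. For 14 genes the copies took more than 20%, so levels of those genes are uncertain. Among them were Rpl28 (54.3%) and, of the genes with results below, Rpl10 (53.3%), Rps6 (42.3%), Rpl10a (37.0%) and Rpl36a (29.9%).

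The start sites below show longer and shorter pyrimidine runs in some of the genes named in this report. Rps14 and Rps20 are not among them. Each line gives 15 bases before and 15 bases from the annotated start, RefSeq GRCm38.p6, 5′ to 3′ on the gene's strand, with the longest run of C or T in capitals. Rpl22 and Rps27l have another annotated start, not shown.
Rpl38, chr11:114668565-114668594, plus strand: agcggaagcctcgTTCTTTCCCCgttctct
Rps27, chr3:90213634-90213663, minus strand: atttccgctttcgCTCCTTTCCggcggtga
Rps27rt, chr9:114982725-114982754, minus strand: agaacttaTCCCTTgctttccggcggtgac
Rps27l, chr9:66946071-66946100, plus strand: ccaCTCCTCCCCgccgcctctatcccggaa
Rpl36al, chr12:69184053-69184082, minus strand: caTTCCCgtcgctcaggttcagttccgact
Rpl22, chr4:152325711-152325740, plus strand: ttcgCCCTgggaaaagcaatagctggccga
Rplp0, chr5:115559452-115559481, plus strand: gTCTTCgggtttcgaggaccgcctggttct
Rpl28, chr7:4792950-4792979, plus strand: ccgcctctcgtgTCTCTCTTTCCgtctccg

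Rpl38, Rps27 and Rpl28 had a run of C or T across the annotated start, whereas Rpl36al, Rpl22 and Rplp0 had only short runs in these windows. RefSeq starts were matched for 62 of the 82 genes, 60 of them tested. On the gene's strand, a run of at least 8 C or T within 25 bases either side of the start was present in 32 of these 60 (53.3%). Of 17491 protein-coding genes with RefSeq starts, which unlike the 60 were not filtered on expression, 3855 had such a run (22.0%). A start at C followed directly by 4 further C or T was found in 14 of the 60 (23.3%) and in 467 of the 17491 (2.67%). Annotated starts can lie some bases away from the start used in these cells, so a short run here says only that these letters are not in this window.

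Ribosomal protein genes took a larger mean share of all counts after culture than in fresh cells, although fresh KO library 3 was above primed KO library 1, and the order of the genotypes was not the same in fresh and cultured cells. In fresh cells the share was 8.39%, 7.40% and 8.75% in KO libraries, against 6.58%, 6.61% and 7.06% in WT libraries. In primed cells it was 8.68%, 9.0% and 9.37% in KO libraries, against 11.1%, 11.5% and 9.91% in WT libraries. After NKG2D it was 11.4%, 10.5% and 9.92% in KO libraries, against 11.7%, 12.6% and 13.4% in WT libraries. The genotypes did not overlap in any of the 3 conditions: KO libraries were above WT libraries when fresh and below them when primed and after NKG2D. In bulk RNA a change in the cells' make-up and a change in RNA per cell cannot be told apart, and a share says nothing of the amount of ribosomal protein mRNA per cell.

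**Figure D1:**
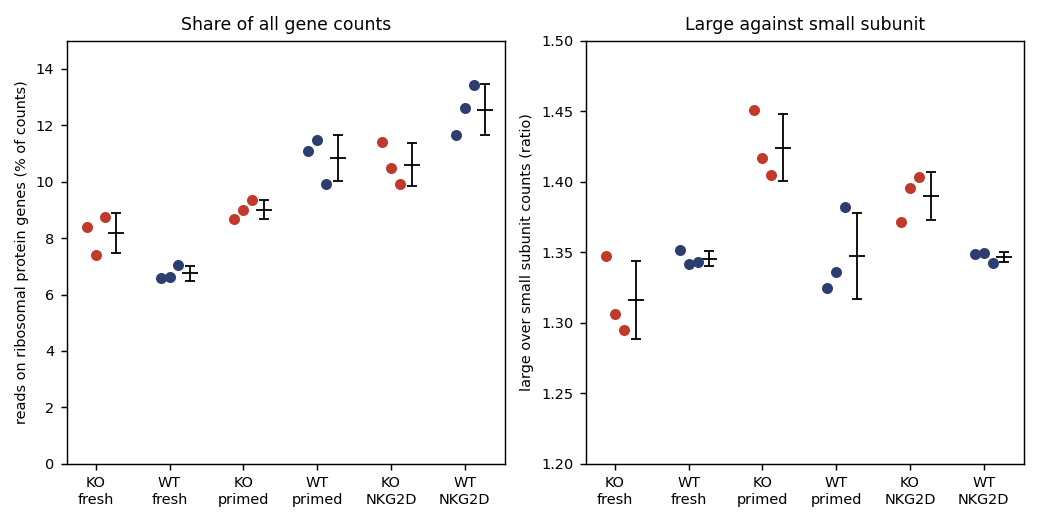
Percent of all gene counts on the ribosomal protein genes (left) and counts of large-subunit over small-subunit genes (right, axis from 1.2) for each of the 18 libraries; points are libraries, and the bar beside each group is the mean with its SD (n = 3). KO shares are above WT shares when fresh (7.40% to 8.75% against 6.58% to 7.06%) and below them when primed (8.68% to 9.37% against 9.91% to 11.5%) or NKG2D-stimulated.

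The balance of large against small subunit varied little. The ratio of their counts averaged 1.42 ± 0.0237 in primed KO libraries and 1.35 ± 0.0304 in primed WT libraries (SD, n = 3 each), with no overlap. After NKG2D it averaged 1.39 ± 0.0169 in KO libraries and 1.35 ± 0.00367 in WT libraries, also with no overlap, and in fresh cells the genotypes overlapped (1.30 to 1.35 in KO libraries and 1.34 to 1.35 in WT libraries). Without Rpl13 and Rps2, which differ between libraries as above, the ratio was 1.38 to 1.39 in primed KO libraries, against 1.32 to 1.35 in primed WT libraries, and 1.36 to 1.38 in KO libraries after NKG2D, against 1.34 in each WT library.

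**Figure D2:**
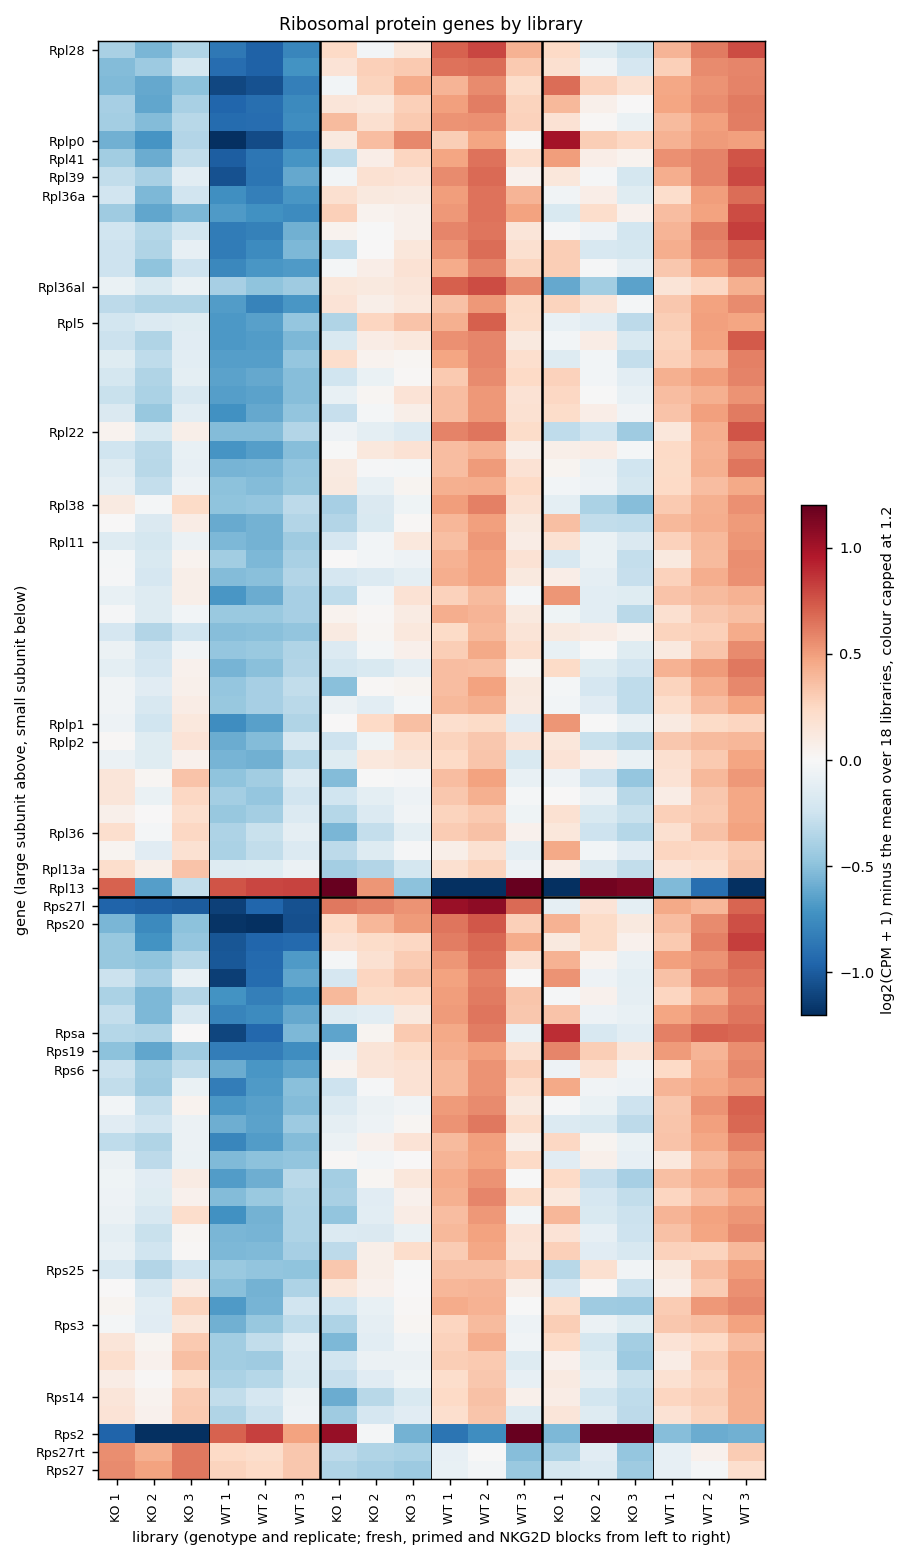
Each row is a ribosomal protein gene (some of the genes described in the text are labelled) and each column a library; colour is log2(CPM + 1) minus the gene's mean over the 18 libraries, capped at 1.2 either way, with large-subunit genes above the line, ordered by the WT priming response. Most rows are lowest in fresh WT libraries and highest in WT libraries primed or after NKG2D, KO libraries lie in between, Rps27 and Rps27rt are highest in fresh cells, and Rpl13 and Rps2 follow individual libraries.

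In fresh cells, nearly every ribosomal protein gene had a higher mean in KO than in WT cells by a similar amount, and none passed the test. The median log2 fold change (KO over WT) was 0.40 over the 80 genes, against 0.01 over all 14864 genes tested, with 77 of 80 above 0 and medians of 0.40 for the large and 0.41 for the small subunit. edgeR's quasi-likelihood test with Benjamini-Hochberg adjustment called 0 of the 80 (of all genes tested 0.0673% were called, 0.0135% higher and 0.0538% lower), although 75 of the 80 had an unadjusted p under 0.05; the smallest adjusted p was 0.201. All 3 KO libraries were above all 3 WT libraries for 76 genes and below them for 2, which were Rpl13 and Rps2, while over all genes such separation was seen for 14.1% upward and 12.8% downward. The main fit pools the spread of all 18 libraries. Fitted on the 6 fresh libraries alone the same test called 56 genes higher and 1 lower. On all 18 libraries, limma voom with quality weights called 74 higher and 1 lower, and DESeq2 called 6 higher. The shares of all genes above belong to the main fit, and those under the other fits are not given here. Why the fits differ was not tested. In the authors' deposited table of this comparison, 71 of 79 listed ribosomal protein genes were higher and 1 was lower at an adjusted p under 0.05, among 1940 genes called of 13578.

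Rpl38, a large-subunit protein whose loss in the mouse disturbs the patterning of the axial skeleton, had 765, 695 and 830 CPM in fresh KO libraries, against 506, 514 and 570 CPM in fresh WT libraries. The log2 fold change was 0.53 (SE 0.13, adjusted p = 0.201). Rpsa, which docks on the back of the small subunit and is also known as the laminin receptor, had 1765, 1741 and 2245 CPM in fresh KO libraries and 1037, 1160 and 1536 CPM in fresh WT libraries, with a log2 fold change of 0.62 (SE 0.27, adjusted p = 0.346). Both genes were higher in every fresh KO library than in any fresh WT library. Rps27l, a paralogue of Rps27 that is known as a p53 target, had nearly equal levels, 92.8, 91.8 and 90.5 CPM in fresh KO libraries and 83.0, 93.4 and 87.2 CPM in fresh WT libraries. With the 20-gene index as a covariate the median difference of the 80 genes in fresh cells was 0.25, with 0 genes higher and 1 lower. The erythroid markers were lower in every fresh KO library, as given above, and their part in the difference was not tested.

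In primed cells the difference had the opposite sign: 30 of the 80 genes were lower in KO than in WT cells, and none was higher. The 30 were 21 of 48 large-subunit and 9 of 32 small-subunit genes, beside 8.52% of all genes tested that were called lower. The median log2 fold change was -0.36 for the 80 genes and -0.02 for all genes, and it was the same for each subunit. The 3 KO libraries were below the 3 WT libraries for 40 genes and above them for none, while over all genes 17.6% were separated downward. The authors' deposited table lists 52 of 79 as lower and 1 as higher, among 4238 genes called of 13578. The 6 T-cell markers, 2 of them at 0 in KO and 1 in WT libraries, summed to 32.4 to 39.5 CPM in primed KO libraries and 41.6 to 76.0 CPM in primed WT libraries, with no overlap, and their part in the result was not tested.

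Rpl38 showed the largest fall among called genes. It had 538, 626 and 683 CPM in primed KO libraries, against 999.8, 1078 and 804 CPM in primed WT libraries, a log2 fold change of -0.64 (SE 0.13, adjusted p = 0.0029). Rpl22, an RNA-binding protein of the large subunit that mice need for αβ T-cell development, had 343, 330 and 321 CPM in primed KO libraries, against 542, 562 and 417 CPM in primed WT libraries, a difference of -0.61 (SE 0.14, adjusted p = 0.0063). Rps14, the small-subunit protein whose loss of 1 copy is linked to the anaemia of the human 5q- syndrome, had 2008, 2419 and 2674 CPM in primed KO libraries and 3583, 3889 and 3169 CPM in primed WT libraries, a difference of -0.58 (SE 0.13, adjusted p = 0.0061). For all 3 genes every KO library was below every WT library, and the calls held whichever library was left out. Rpl36al, the retrogene paralogue of Rpl36a, fell by 0.56 (SE 0.09, adjusted p = 0.00051), and Rpl36a itself fell by 0.38 (adjusted p = 0.032), a call lost in 5 of 6 omissions of a library.

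The stalk genes did not all move alike. Rplp0, which anchors the stalk that recruits elongation factors, had 3620, 4318 and 4991 CPM in primed KO libraries and 4112, 4646 and 3378 CPM in primed WT libraries, with overlap (KO library 3 was above and WT library 3 below all libraries of the other genotype) and a log2 fold change of 0.09 (95% interval -0.30 to 0.49). Rplp1, which pairs with Rplp2 on the stalk, had a log2 fold change of 0.10 (-0.24 to 0.44), and Rplp2 one of -0.28 (-0.58 to 0.02). Rplp0 and Rplp1 were, beside Rpl13, the genes with fold changes above 0 in primed cells.

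The count in primed cells rested on single libraries. Without WT primed library 3, the one with the high index, 58 genes were called. With any of 4 others left out the count fell below 20: it was 10 without WT primed library 1, 5 without WT primed library 2, 17 without KO primed library 1 and 14 without KO primed library 2. Fitted on the 6 primed libraries alone, 9 genes were lower and none higher, and with limma voom 63 were lower and 1 higher. The median stayed between -0.46 and -0.26 in these omissions and was -0.28 with the index as a covariate.

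After NKG2D more of the genes were lower in KO cells. In all, 58 of the 80 were lower and none was higher, 38 of the large and 20 of the small subunit, beside 9.47% of all genes tested that were called lower. The median log2 fold change was -0.46 for the 80 genes, -0.47 for the large and -0.41 for the small subunit, and 0.03 for all genes. All KO libraries were below all WT libraries for 64 genes and above them for none, beside 17.1% of all genes separated downward. The authors' deposited table lists 75 of 79 as lower and 2 as higher, among 6177 genes called of 13578. Marker lists of other cell types also differed here: the 7 monocyte, macrophage and neutrophil markers, 4 of them at 0 in KO and 3 in WT libraries, summed to 278 to 347 CPM in KO and 166 to 184 CPM in WT libraries. The 6 T-cell markers summed to 26 to 27 CPM in KO and 40.7 to 65.7 CPM in WT libraries, and the 10 NK-cell markers to 8582 to 10251 CPM in KO and 11306 to 13223 CPM in WT libraries. Their part in the result was not tested.

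Rpl36al had 226, 260 and 222 CPM in KO libraries after NKG2D, against 387, 413 and 467 CPM in WT libraries, so that it fell by 0.84 (log2; SE 0.09, adjusted p = 1.3e-05). Rpl22 had 291, 303 and 266 CPM in KO libraries and 394, 487 and 606 CPM in WT libraries, so that it fell by 0.79 (SE 0.14, adjusted p = 0.00088). Rpl38 had 652, 545 and 496 CPM in KO libraries and 880, 950 and 1033 CPM in WT libraries, so that it fell by 0.76 (SE 0.13, adjusted p = 0.00069). These 3 calls held whichever library was left out, and in each gene the genotypes were fully separated. Rpl5 and Rpl11, which with 5S rRNA bind and restrain Mdm2, fell by 0.60 (adjusted p = 0.011) and 0.42 (adjusted p = 0.025). The Rpl5 call held in all 6 omissions of a library, and the Rpl11 call was lost in 3 of 6. Rps6, the substrate of S6 kinase, fell by 0.39 (adjusted p = 0.014, lost in 1 of 6 omissions), and Rpl39, which lines the exit tunnel, fell by 0.64 (adjusted p = 0.0082).

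Among genes of the small subunit that were not called after NKG2D were Rps3 (-0.35, adjusted p = 0.10), which lines the mRNA entry channel, Rps19 (-0.14, adjusted p = 0.48), mutated in human Diamond-Blackfan anaemia, and Rpsa (-0.39, adjusted p = 0.36). Rplp0 had 6705, 4099 and 3967 CPM in KO libraries after NKG2D and 4476, 4761 and 4694 CPM in WT libraries, with KO library 1 above and KO libraries 2 and 3 below all WT libraries. Its log2 fold change was 0.08 (SE 0.19, adjusted p = 0.81). In Rpsa the same KO library was again above the others, at 4128 CPM, beside 1953 and 2046 CPM in the other KO libraries and 3405, 3638 and 3610 CPM in WT libraries.

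The count after NKG2D also rested on single libraries. It was lowest, at 24, without WT library 3, and it was 35 or 28 without KO library 2 or 3. Without KO library 1, the one with the low index, 71 genes were called. Fitted on the 6 libraries alone, 27 genes were lower and 1 was higher. The median lay between -0.55 and -0.36 over these omissions. With the index as a covariate 38 genes were lower and the median was -0.31, and with total counts alone as the scaling, which moves the median of all genes to 0.15, it was -0.34.

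**Figure D3:**
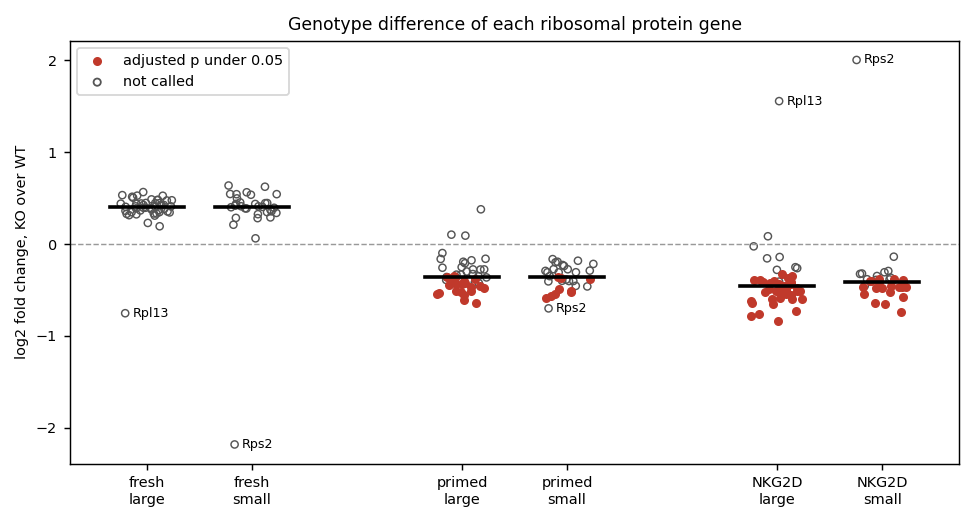
Log2 fold change of each ribosomal protein gene whose mean log2 CPM reached 3, KO over WT, in the 3 conditions and by subunit; filled points have an adjusted p under 0.05 (edgeR quasi-likelihood test), and the bars are medians. The points lie close to 0.40 when fresh, close to -0.36 when primed and close to -0.46 with NKG2D, with Rpl13 and Rps2 far from the rest.

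Within each genotype comparison the genes lay close together. Of the 79 abundant genes, 73 were within 0.2 of the median log2 fold change when fresh, 68 when primed and 64 with NKG2D. The responses to priming were more spread, with 30 of 79 within 0.2 of the median in KO cells and 37 of 79 in WT cells.

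Priming with IL-15 was followed by a rise of 25 of the 80 genes in KO cells and of nearly all of them in WT cells. In KO cells 25 rose and 6 fell, beside 48.7% of all genes tested that were called, 23% up and 25.7% down, and the median log2 fold change (primed over fresh) was 0.16, against -0.06 for all genes. The KO rises were 16 of 48 large-subunit and 9 of 32 small-subunit genes. In WT cells 73 rose and 2 fell, beside 53.7% of all genes called, 26.5% up and 27.2% down, and the median was 0.86, against -0.06 for all genes. It was 0.87 for the large subunit, of which 44 of 48 rose, and 0.86 for the small subunit, of which 29 of 32 rose. Fresh and primed libraries did not overlap, with primed higher, for 30 genes in KO cells, beside 25.5% of all genes, and for 74 in WT cells, beside 31.3%. Primed libraries were all lower for 12 genes in KO cells, beside 32% of all genes, and for 2 in WT cells, beside 32.8%. With the index as a covariate 38 genes rose and 7 fell in KO cells (median 0.24), and 73 rose and 2 fell in WT cells (median 0.81).

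Some marker lists of other cell types were lower in primed than in fresh libraries of both genotypes, but the T-cell list was lower in KO cells only. The 6 T-cell markers summed to 32.4 to 39.5 CPM in primed KO libraries, against 65.4 to 76.1 CPM in fresh KO libraries. In WT cells they summed to 41.6 to 76.0 CPM in primed libraries and 38.0 to 88.2 CPM in fresh libraries, with overlap. The 7 monocyte, macrophage and neutrophil markers summed to 108 to 140.3 CPM in primed KO libraries, against 511 to 665 CPM in fresh KO libraries, and to 126 to 165 CPM in primed WT libraries, against 509 to 607 CPM in fresh WT libraries. Of these 7, 5 were at 0 in primed KO and 4 in primed WT libraries, and none in fresh libraries. The 5 B-cell markers summed to 82.4 to 109.8 CPM in primed KO libraries, against 281 to 323 CPM in fresh KO libraries, and to 90.9 to 102 CPM in primed WT libraries, against 234 to 239 CPM in fresh WT libraries. The part of these markers in the priming responses was not tested.

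Rps27l had the largest rise in WT cells, and in KO cells the largest after Rps2, which follows the index and is given below. It had 282, 274 and 263 CPM in primed KO libraries, against 92.8, 91.8 and 90.5 CPM in fresh KO libraries, a log2 fold change of 1.58 (SE 0.11, adjusted p = 4.6e-09). In WT cells it had 374, 383 and 291 CPM in primed libraries, against 83.0, 93.4 and 87.2 CPM in fresh libraries, a change of 1.99 (SE 0.12, adjusted p = 2.3e-10). Rps20, a protein of the small-subunit head, rose by 0.99 in KO cells (SE 0.14, adjusted p = 1.1e-05) and by 1.73 in WT cells (SE 0.14, adjusted p = 1.3e-08). Rps19 rose by 0.62 in KO and 1.18 in WT cells, and Rplp0 by 0.90 and 1.32.

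Rps27 and Rps27rt ran the other way. Rps27 had 816, 795 and 773 CPM in primed KO libraries, against 1547, 1458 and 1620 CPM in fresh KO libraries, so that it fell by 0.96 (SE 0.11, adjusted p = 2.3e-06). In WT cells it had 982, 1021 and 767 CPM in primed libraries, against 1258, 1234 and 1306 CPM in fresh libraries, so that it fell by 0.46 (SE 0.11, adjusted p = 0.0026). Rps27rt fell by 0.89 in KO cells (adjusted p = 2e-05) and by 0.45 in WT cells (adjusted p = 0.0072); as its coding sequence is that of Rps27, the pair is not 2 independent observations. The paralogues thus moved in opposite directions on priming, Rps27l up and Rps27 down, in both genotypes. Per kilobase, the mean level of Rps27l was 548 CPM in primed KO cells and 184 CPM in fresh KO cells, beside 2303 and 4469 CPM of Rps27.

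Among the other genes that fell in KO cells were Rps14, Rpl13a and Rpl36. Rps14 fell by 0.53 in KO cells (SE 0.13, adjusted p = 0.0029), whereas in WT cells it rose by 0.41 (SE 0.13, adjusted p = 0.014). The KO call held in all 6 omissions of a library, and the WT call was lost in 2 of 6, with an adjusted p of 0.0602 without WT primed library 2. Rpl13a, which in human myeloid cells is released from the ribosome to silence inflammatory mRNAs, had 1387, 1436 and 1591 CPM in primed KO libraries, against 2124, 1926 and 2321 CPM in fresh KO libraries, and fell by 0.53 (adjusted p = 0.0011). In WT cells its change was 0.26 (adjusted p = 0.064). Rpl36, named after its values were seen, fell by 0.46 in KO cells. Rps2, whose level follows the index, was called higher in KO cells by 1.81 (SE 0.71, adjusted p = 0.044), a call lost in 4 of 6 omissions of a library.

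**Figure D4:**
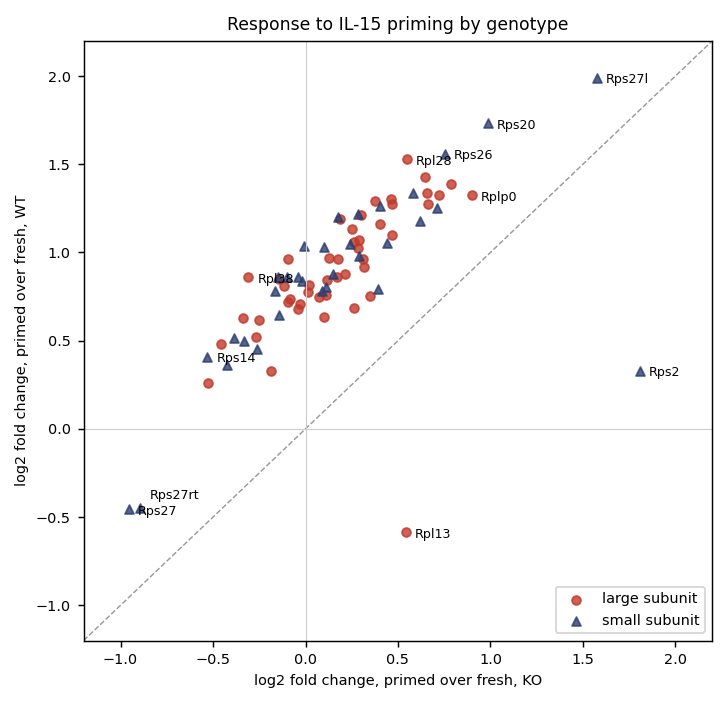
Log2 fold change on priming (primed over fresh) in KO cells (horizontal axis) and in WT cells (vertical axis) for ribosomal protein genes whose mean log2 CPM reached 3, circles large and triangles small subunit; the dashed line marks equal responses. All genes except Rpl13 and Rps2 lie above the line; Rps27l is highest on the WT axis (1.99, and 1.58 in KO cells), Rps2 lies farthest right (1.81 in KO cells), Rps27 and Rps27rt lie farthest left, and Rpl13 is lowest on the WT axis (-0.59), just below them.

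The difference between the 2 responses was tested as an interaction term in the same fit. It was negative, a smaller rise or a fall in KO cells, for 66 of the 80 genes and positive for none, beside 10.5% of all genes tested that were called, 6.41% negative and 4.08% positive. These were 41 of 48 large-subunit and 25 of 32 small-subunit genes, and the median difference was -0.78 on the log2 scale, against -0.01 for all genes. This quantity combines the fresh and the primed genotype differences, which have opposite signs, so it repeats them rather than adding to them. Rpl38 differed by -1.17 (SE 0.18, adjusted p = 0.00088) and Rpl22 by -1.06 (SE 0.20, adjusted p = 0.0029). Rps14 differed by -0.94 (adjusted p = 0.0046) and Rpl39 by -0.92 (adjusted p = 0.013, lost in 2 of 12 omissions of a library). Rplp0 differed by -0.42 (95% interval -0.98 to 0.14) and Rps25, a small-subunit protein needed for viral internal initiation, by -0.40 (-0.78 to -0.02, adjusted p = 0.16).

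The number called ranged with the library left out. It was 75 without WT primed library 3, and it was lower by more than 1.5 times without KO fresh library 3 (30), WT primed library 1 (41) or WT primed library 2 (30). The median difference stayed between -0.87 and -0.64. With the index as a covariate it was -0.52, with 35 genes called, all lower.

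With TMM scaling, NKG2D stimulation after priming was followed by few called changes in these genes. In KO cells 0 rose and 3 fell, Rpl36al and Rps27l among them, beside 35.3% of all genes called, 18.4% up and 16.9% down. In WT cells 0 rose and 2 fell (Rpl36al and Rps27l), beside 19.9% of all genes called, 9.2% up and 10.7% down. The median log2 fold change (NKG2D over primed) was -0.01 in KO cells and 0.09 in WT cells, against 0.04 and -0.01 for all genes. For the rises, 0 in each genotype, an unadjusted p under 0.05 in either direction was found for 6 genes in KO cells and 4 in WT cells. DESeq2 called 0 rises in either genotype and limma voom 1 in KO cells and 0 in WT cells. Scaling by total counts alone gave mostly rises instead: 17 genes rose and 2 fell in KO cells, and 4 rose and 1 fell in WT cells. All NKG2D libraries were below all primed libraries for 11 genes in KO cells (19.6% of all genes) and 1 in WT cells (19.9%), and above them for 0 in KO cells (23.4%) and 3 in WT cells (19.4%). That scaling moves the median of all genes to 0.22 in KO and 0.11 in WT cells, and the medians of the ribosomal protein genes were then above 0 in both (0.17 in KO and 0.22 in WT cells).

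Rpl36al had 226, 260 and 222 CPM after NKG2D in KO cells, against 382, 377 and 385 CPM in primed KO cells, and fell by 0.69 (SE 0.09, adjusted p = 1.5e-05). In WT cells it had 387, 413 and 467 CPM after NKG2D, against 571, 596 and 516 CPM when primed, and fell by 0.41 (SE 0.09, adjusted p = 0.0035). Rps27l had 168, 203 and 167 CPM in KO cells after NKG2D, against 282, 274 and 263 CPM when primed, so that it fell by 0.61 (SE 0.11, adjusted p = 0.00043). In WT cells Rps27l had 249, 240 and 294 CPM after NKG2D, against 374, 383 and 291 CPM when primed, so that it fell by 0.42 (SE 0.11, adjusted p = 0.013). The WT call of Rps27l was lost in 4 of 6 omissions of a library. In KO cells after NKG2D the libraries of both genes were all below the primed libraries.

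Both genes that fell in both genotypes have a paralogue with more counts per kilobase. Rpl36a, the partner of Rpl36al, changed by -0.17 in KO cells (95% interval -0.42 to 0.07) and by -0.05 in WT cells (-0.30 to 0.19). Rps27, the partner of Rps27l, changed by 0.13 in KO cells (-0.10 to 0.37) and by 0.21 in WT cells (-0.03 to 0.45).

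The NKG2D response did not differ between genotypes for any of the 80 genes by edgeR's quasi-likelihood test (0 called, beside 3.55% of all genes, 1.49% positive and 2.07% negative), with 2 at an unadjusted p under 0.05. DESeq2 called 0 and limma voom called 2 (1 higher and 1 lower). The median difference was -0.11, against 0.05 for all genes, and for Rpl36al it was -0.28 (95% interval -0.55 to -0.01, adjusted p = 0.25).

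**Figure D5:**
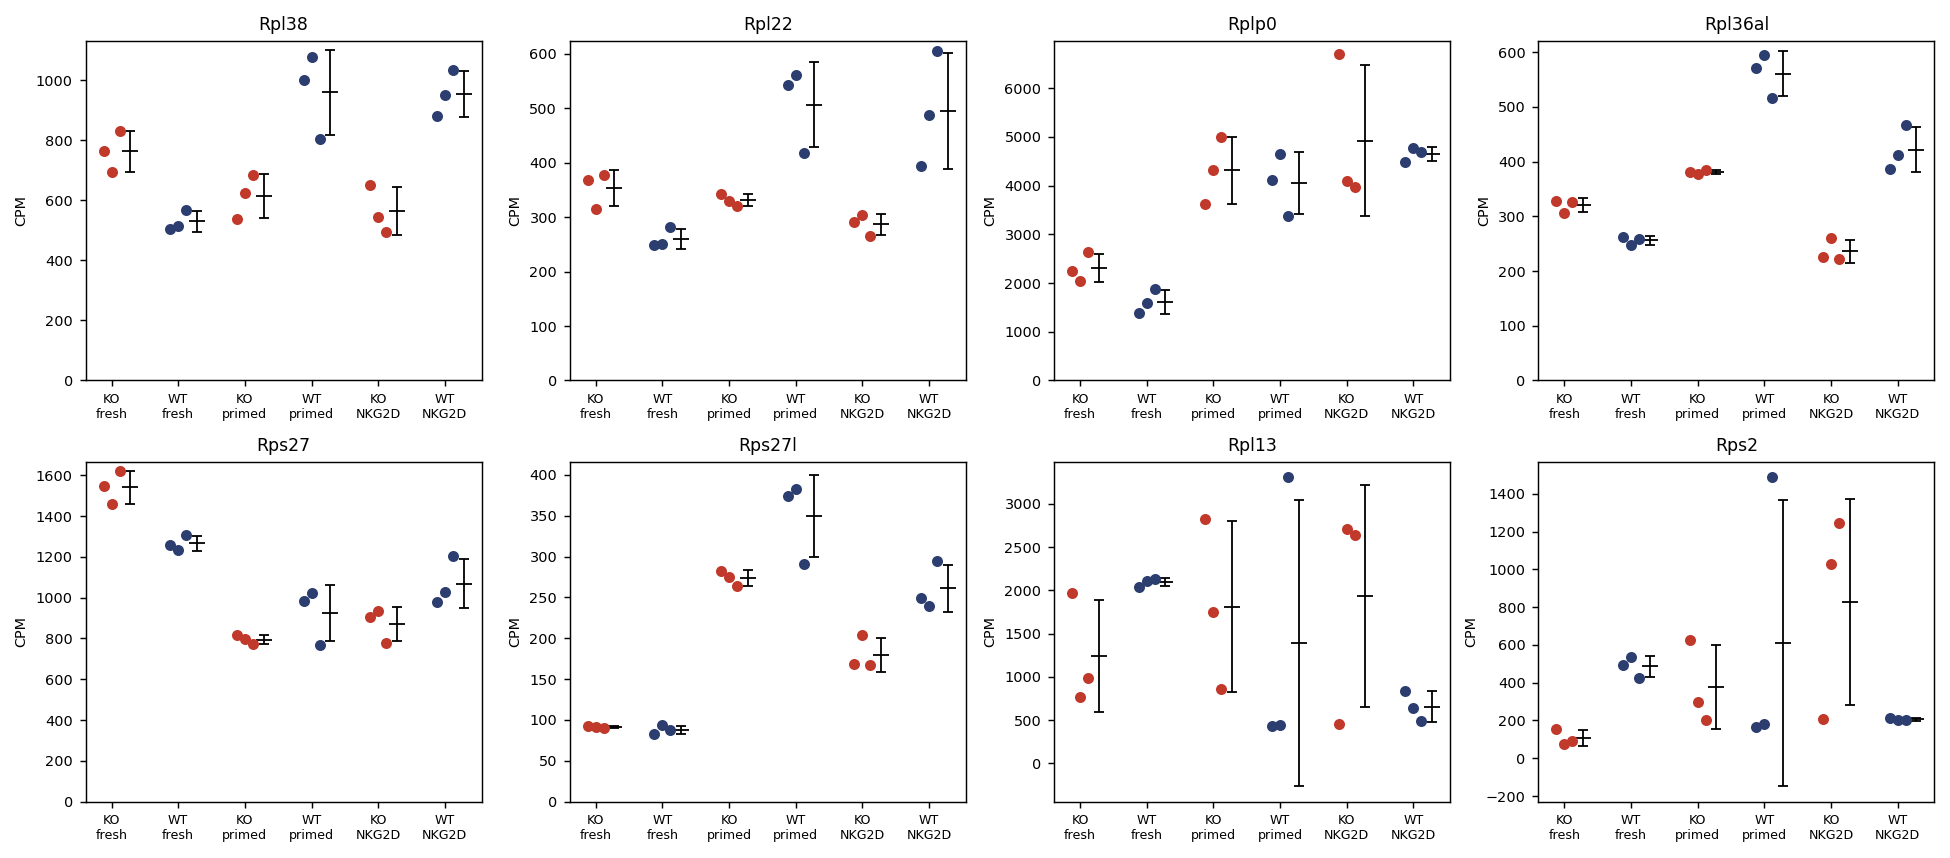
CPM in each library of 8 ribosomal protein genes; points are libraries, the bar beside each group is the mean with its SD (n = 3), and KO is left of WT in each condition. Rpl38, Rpl22 and Rpl36al are lower in KO than in WT libraries when primed and after NKG2D, Rplp0 overlaps, Rps27 and Rps27l move in opposite directions on priming, and Rpl13 and Rps2 vary within groups (Rps2 165 to 1487 CPM in primed WT libraries).

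Ribosomal proteins whose symbols the rule does not match gave like values. Of 7 listed symbols 6 were tested, with KO-over-WT medians of 0.34 when fresh, -0.33 when primed and -0.44 with NKG2D. None was called in fresh cells, 2 were lower in primed KO cells and 4 after NKG2D, beside 8.52% and 9.47% of all genes tested called lower. Fau, which encodes Rps30 fused to a ubiquitin-like protein, fell by 0.58 in primed KO cells (adjusted p = 0.0036) and by 0.60 after NKG2D (adjusted p = 0.0024). Rpl22l1, the paralogue of Rpl22, changed by -0.05 in primed KO cells (adjusted p = 0.87) and fell by 0.49 after NKG2D (adjusted p = 0.026).

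Of 20 mRNAs of elongation factors and other TOP transcripts, 6 were lower and 0 higher in primed KO cells and 6 were lower and 0 higher after NKG2D, with medians of -0.12 and -0.24. Of all genes tested, 8.52% were called lower and 7% higher when primed, and 9.47% and 8.75% after NKG2D. The initiation factor subunit Eif3k fell by 0.60 (adjusted p = 0.0011) and Naca, a ribosome-bound chaperone of nascent chains, by 0.50 (adjusted p = 0.0028) in primed KO cells. After NKG2D Naca fell by 0.65 (adjusted p = 0.00028) and Btf3, its partner in the same complex, by 0.64 (adjusted p = 0.00082). Priming raised 10 and lowered 3 of the 20 in KO cells, beside 23% and 25.7% of all genes tested. It raised 14 and lowered 0 in WT cells, beside 26.5% and 27.2%. Npm1, a nucleolar chaperone of ribosome assembly, rose by 1.63 in KO cells and 1.70 in WT cells.

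The 28 initiation factors did not follow the ribosomal protein genes on NKG2D stimulation. Against primed cells, 17 fell and 1 rose in KO cells and 11 fell and 0 rose in WT cells, with medians of -0.55 and -0.31. Of all genes tested, 16.9% fell and 18.4% rose in KO cells, and 10.7% fell and 9.2% rose in WT cells. Eif4e, which binds the mRNA cap, fell by 1.39 in KO cells (adjusted p = 9.9e-09) and by 0.66 in WT cells (adjusted p = 6.7e-05), and the 2 responses differed by -0.73 (adjusted p = 0.0055). In primed cells 4 of the 28 were higher and 1 lower in KO than in WT cells, beside 7% and 8.52% of all genes tested. Those of smallest p among the higher ones were Eif4a2, an RNA helicase of the cap-binding complex (0.79, adjusted p = 0.001), and Eif4g2 (0.53, adjusted p = 0.0016). The highest fold change, 0.85, was that of Eif1, a start-codon selection factor named after its values were seen (adjusted p = 0.0067). After NKG2D 1 was higher and 11 were lower in KO cells, beside 8.75% and 9.47% of all genes tested.

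Of 24 genes that control TOP mRNAs or mTORC1, or encode Myc proteins, 0 were called in fresh cells, 1 higher and 2 lower in primed KO cells and 2 higher and 3 lower after NKG2D. Of all genes tested, 7% were called higher and 8.52% lower when primed, and 8.75% and 9.47% after NKG2D. The counts of the 24 were near these shares. Rptor, the scaffold subunit of mTORC1, fell by 0.61 in primed KO cells (adjusted p = 0.011), and Larp1 fell by 0.57 after NKG2D (adjusted p = 0.02). Maf1, a repressor of RNA polymerase III that was called higher by 2.52 in KO cells after NKG2D (adjusted p = 0.023), is among the 20 genes of the index. Myc, a transcription factor that drives ribosome genes, had 18.8, 8.65 and 14.3 CPM in KO cells after NKG2D, against 245, 225 and 267 CPM in primed KO cells, so that it fell by 4.14 (adjusted p = 2.3e-09). In WT cells Myc had 29.8, 19.5 and 18.9 CPM after NKG2D, against 206, 165 and 211 CPM when primed, so that it fell by 3.09 (adjusted p = 1e-07). Over the same 6 hours the median of the ribosomal protein genes was -0.01 in KO and 0.09 in WT cells with TMM scaling, as given above. A link between Myc and these medians was not tested.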

How the data were processed

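RNA was harvested with an RNeasy kit and libraries made with Takara-Clontech SMARTer reagents, per the labels' protocols. bcl2fastq, DRAGEN and edgeR and the build mm10 are named in the submitters' processing notes, with no role or version. The deposited values are estimated counts (expected counts) per gene, of which 30% of those above 0 are not whole; the test had been planned for whole counts, so they were rounded. Entries that repeated an identifier (168 identifiers, with the same values) were counted once. The authors' deposited tables of 3 comparisons give log2 fold changes and adjusted p-values, which are quoted only where named; 54 per-sample columns in them were not used.

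Depth was 14772350 to 34367582 counts per library, and intervals come from the spread between libraries in the fit. Genes were kept by edgeR's filterByExpr (14864 genes), scaled by TMM and fitted over all 18 libraries with 1 mean per group (edgeR 4.0.16, glmQLFit and glmQLFTest, R 4.3.3; common biological coefficient of variation 0.234). p-values were adjusted by Benjamini-Hochberg over all genes tested, with 0.05 as the threshold. Alternatives were limma voom with quality weights (limma 3.58.1), DESeq2 1.42.0, other scalings, no filter, a replicate block, only the groups compared and leaving out each library; adding processed copies, scaling by total counts alone and the index covariate were chosen after seeing the data. The edgeR, limma voom and DESeq2 fits were tested on simulated data. Transcript lengths and coding sequences came from GENCODE vM21 (GRCm38), start sites from RefSeq GRCm38.p6.

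Genes named were those with the largest called changes (3 each way per genotype comparison, 2 per response) at a mean log2 CPM of at least 3, a fixed set of 22 with known roles or paralogues, those failing the filter, and up to 2 rises and 2 falls of smallest p per pathway list. The genes and lists were chosen with earlier results of these data known. Some genes are not reported here by name.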

Additional observations from a re-analysis of the deposited data

Results flagged for a closer look

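The response to priming differed between genotypes, by the interaction term, for 66 of the 80 ribosomal protein genes tested, all negative. Of all genes tested, 6.41% were called negative and 4.08% positive. This term combines the fresh and the primed genotype differences, which have opposite signs, so it repeats them rather than adding to them. Among the genes named, the difference (KO minus WT, log2) was -1.17 for Rpl38, -1.06 for Rpl22, -0.94 for Rps14, -0.92 for Rpl39 and -0.88 for Rpl36al. It was -0.81 for Rpl36a, -0.79 for Rpl13a, -0.79 for Rps3, -0.78 for Rpl5, -0.76 for Rpl10a, -0.73 for Rpl11 and -0.72 for Rplp2. It was -0.69 for Rps4x, -0.63 for Rpl10, -0.62 for Rps6 and -0.56 for Rps19. Over 12 omissions of a library the call was lost in 10 for Rps19, 8 for Rplp2, 6 for Rpl5, 5 for Rps4x, 3 for Rps3 and 2 each for Rps6, Rpl11 and Rpl39, and in none for the other 8 genes named here.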

How the results depend on the processing

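The calls in fresh cells depended most on the fit. Against 0 called, limma voom called 75, the 6 fresh libraries alone 57, no filter on low counts 52, DESeq2 6 and the index covariate 1, and leaving out any library gave 0. In primed cells the 30 became 64 with voom and 9 with only the groups compared (5 to 58 over omissions of a library). After NKG2D the 58 became 28 with only the groups compared and 38 with the index (24 to 71). For priming, the KO count became 47 with voom (25 to 31), and the WT count was 72 to 79. For the NKG2D response in KO cells the count became 21 with voom, 7 with the index and 19 with total counts alone (17 higher and 2 lower; 2 to 7 over omissions). In WT cells it became 4 without a filter, 1 with only the groups compared and 5 with total counts alone (4 higher and 1 lower; 1 to 2). For the difference of priming responses the 66 became 35 with the index (30 to 75). The difference of NKG2D responses gave 2 with voom, 2 without a filter and 1 with the index (0 over omissions). For settings other than the main fit, the share of all genes called is not given in this report. These counts alone therefore do not show whether ribosomal protein genes changed more than other genes between settings. The cause of these changes was not tested.

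The median over the genes kept its sign in every genotype comparison and in the priming comparisons. It ranged from 0.33 to 0.47 in fresh, -0.46 to -0.26 in primed and -0.55 to -0.36 in NKG2D-stimulated cells over omissions of a library, from 0.11 to 0.25 for KO priming and 0.80 to 0.97 for WT priming, and from -0.87 to -0.64 for their difference. With the index it was 0.25, -0.31 and -0.52 for the fresh, NKG2D and priming-difference comparisons, and with total counts alone 0.72 for WT priming, 0.22 for the NKG2D response in WT cells and -0.63 for the priming difference. The median NKG2D responses changed sign: in KO cells 0.0057 with only the groups compared, 0.17 with total counts alone and -0.11 to 0.062 over omissions, and in WT cells -0.0058 with the index and -0.013 to 0.16 over omissions. The median difference of NKG2D responses was -0.25 to -0.013.

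With a replicate block the count for the priming difference was 43. Same-numbered libraries did not deviate together throughout: 9 of 18 pairs within a genotype and 1 of 9 pairs across genotypes correlated above 0.1. Pairs of fresh and primed KO libraries correlated at 0.30, 0.257 and 0.277, whereas fresh and NKG2D KO libraries 1 correlated at -0.425. Of 18 libraries, 5 correlated best with their own number. As libraries that stood apart in the index enter these pairs, the check cannot show whether the numbers mark pairs. They were not treated as pairs. Of the calls of named genes, 482 held and 100 were lost over omissions of a library, and 752 held and 58 were lost under the other settings, with no change of sign. Counts cannot show whether ribosomal protein mRNA per cell changed.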
